A study of Homo sapiens with 6 samples.

Results

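The genes described here are 36 that serve protein folding, quality control and degradation in the endoplasmic reticulum (ER), together with the sensors and transcription factors that regulate them. They were taken by symbol from a table of 28395 genes, and all 36 were found. RNA was sequenced from A375 cells, an established human melanoma line carrying no engineered change (genotype WT), after 6 h in medium with 0.01% olive oil (OLO) or 0.01% ozonated olive oil (OZO), with 3 libraries in each group. The value given for each gene is the authors' mean log2 CPM (counted fragments of a gene, scaled to a common library total) over all 6 libraries, OLO and OZO together. It has no SD and no value per group, so the levels below describe this melanoma line across both oils, and no difference between OZO and OLO was computed.

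Proteins that enter the ER are threaded through a channel, folded with the help of chaperones and of enzymes that make and rearrange disulfide bonds, and either exported or sent back to the cytosol for destruction by the proteasome (ER-associated degradation). When unfolded protein accumulates, membrane sensors start the unfolded protein response. Its ATF6 and XBP1 branches raise transcription of chaperones and degradation genes, in many cases through a promoter sequence termed the ER stress element.

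That element is the sequence feature on which part of the description turns. In its first form it consists of CCAAT and CCACG with 9 bases between them, and in its second form of ATTGG and CCACG with 1 base between them. Both were searched on both strands of RefSeq promoter windows (GRCh38.p14) reaching from 250 bases before to 50 bases after each transcription start. The best-known chaperone promoter of this family is that of HSPA5, shown here over the 250 bases before the start on the minus strand (chr9:125241344-125241593), with CCAAT and CCACG of its first-form element in capitals.
HSPA5: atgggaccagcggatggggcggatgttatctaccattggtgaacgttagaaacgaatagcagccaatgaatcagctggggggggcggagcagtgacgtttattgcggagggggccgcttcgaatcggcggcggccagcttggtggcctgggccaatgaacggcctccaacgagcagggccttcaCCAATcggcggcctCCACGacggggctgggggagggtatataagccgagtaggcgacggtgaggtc

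All 9 first-form sites of members are shown next with 8 flanking bases on each side, or as many as the window holds, because they let the spacing and the variable bases between CCAAT and CCACG be compared. Each is written on the strand that reads CCAAT first, with those bases in capitals, and the coordinates are those of the element itself.
CALR (chr19:12938384-12938402, minus strand): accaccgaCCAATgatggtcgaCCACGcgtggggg
CANX (chr5:179698778-179698796, plus strand): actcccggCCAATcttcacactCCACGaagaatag
CRELD2 (chr22:49918554-49918572, minus strand): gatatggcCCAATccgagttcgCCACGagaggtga
ERO1B (chr1:236282183-236282201, plus strand): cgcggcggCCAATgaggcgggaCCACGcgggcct
HSP90B1, farther site (chr12:103930216-103930234, plus strand): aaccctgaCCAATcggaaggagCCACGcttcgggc
HSP90B1, nearer site (chr12:103930321-103930339, minus strand): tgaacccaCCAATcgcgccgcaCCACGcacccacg
HSPA5 (chr9:125241391-125241409, minus strand): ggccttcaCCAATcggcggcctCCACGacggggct
PDIA6 (chr2:10812853-10812871, minus strand): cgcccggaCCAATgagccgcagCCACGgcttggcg
XBP1 (chr22:28800603-28800621, minus strand): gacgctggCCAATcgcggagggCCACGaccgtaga

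The second form was found in HERPUD1, SDF2L1 and HYOU1, the last with a pair of sites. These are written on the strand that reads ATTGG first, with ATTGG and CCACG in capitals.
HERPUD1 (chr16:56932025-56932035, plus strand): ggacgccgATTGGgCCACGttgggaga
HYOU1, nearer site (chr11:119057274-119057284, plus strand): gcgtactcATTGGaCCACGtcccaggc
HYOU1, farther site (chr11:119057380-119057390, plus strand): ggcctgggATTGGaCCACGtcacgggg
SDF2L1 (chr22:21642114-21642124, minus strand): gggttttgATTGGtCCACGcttccgag

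Nearly every member was read deeply enough for its level to be given. The order of some members changed with the length used, as described below. The lowest value of the table, a log2 CPM of -5.20, stands for a gene without reads in every library, and from it a geometric mean of 18409903 counted fragments per library after the authors' scaling was derived. One CPM then stands for 18.4 reads. The reads given below are geometric means per library derived in the same way. Of all genes, 21383 had at least 1 read and 13773 reached 10 reads. Among the 36 members 35 reached 10 reads, and DERL3 alone was listed at 0.

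The identity of the cells was checked against marker genes. Of 8 melanocyte lineage genes 5 reached 10 reads, led by the lineage factors SOX10 with 919 reads and MITF with 499 reads, while the pigment genes PMEL and DCT had 5.75 and 4.74 reads and TYR was listed at 0. The 3 markers of dedifferentiated melanoma were all read, AXL most with 4915 reads. The keratinocyte list reached 10 reads for 2 of 4 genes, KRT10 with 469 and KRT14 with 77.5 reads, the fibroblast list for 2 of 4 and the endothelial list for 1 of 3. None of 4 blood and immune genes did so, nor any of 4 markers of secretory cells rich in ER, such as plasma and pancreatic cells.

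As a group the ER genes were abundant. Their median level was a log2 CPM of 6.52, against 1.96 over all genes with a read and 4.47 over genes of at least 10 reads. To compare genes of unequal length, the level was also expressed per kb of the canonical GENCODE transcript, as log2 CPM per kb. On that scale the members had a median of 4.80 and the 19738 read genes with a known length a median of 1.06. Above the latter lay 34 of 36 members, with ERN1 and DERL3 below. The top 10% of genes per length, from a log2 CPM per kb of 5.19 upwards, held 15 members, and the top 1%, from 7.98 upwards, held CALR, HSP90B1, CANX and HSPA5.

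**Figure D1:**
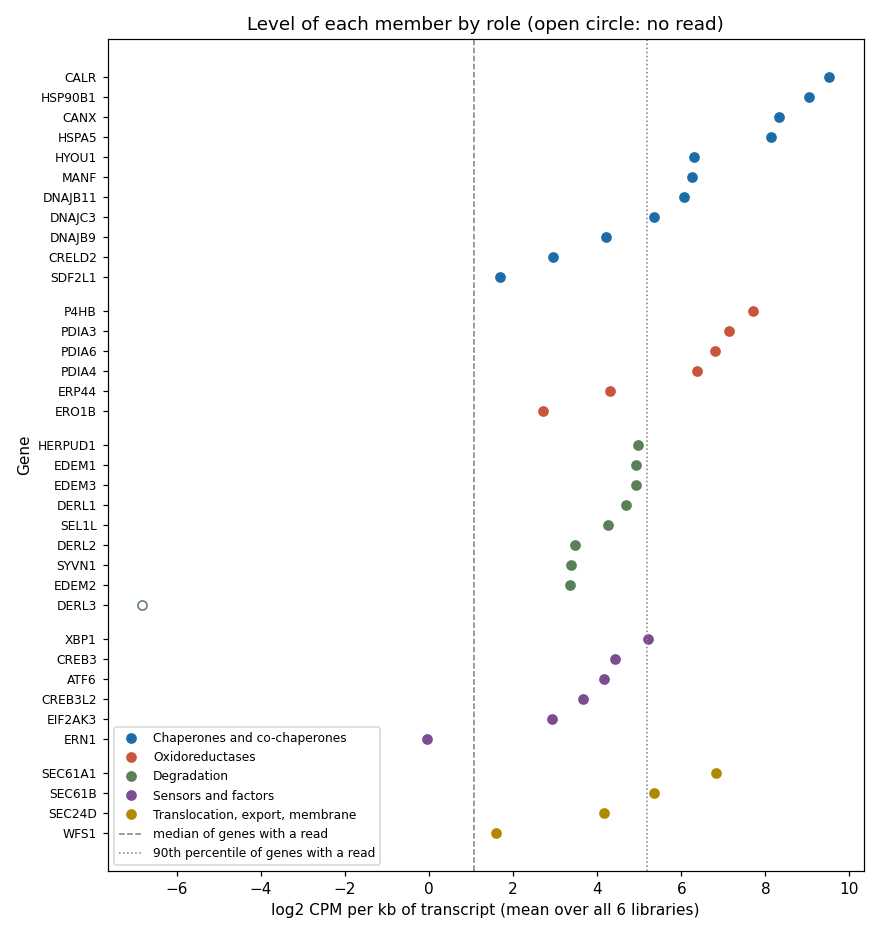
Level of each of the 36 genes as log2 CPM per kb of canonical transcript, the mean over all 6 libraries, grouped by role. The dashed line is the median (1.06) and the dotted line the 90th percentile (5.19) of genes with a read, and the open circle is DERL3, listed at 0. CALR lies highest at 9.52, and no gene of the degradation group passes the dotted line.

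A small number of genes carried most of this RNA. The members added up to 9687 CPM, which was 0.981% of the CPM summed over all genes. The 3 most read members, CANX, HSP90B1 and CALR, held 45.7% of the members' sum, the top 6 held 67.7% and the top 9 held 78.3%. By role, the 11 chaperones and co-chaperones held 65.7%, the 6 oxidoreductases 16.9%, the 9 degradation genes 8.37%, the 4 genes of translocation, export and membrane 5.30%, and the 6 sensors and factors 3.79%.

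The chaperones had a median log2 CPM per kb of 6.25. CALR (calreticulin) and CANX (calnexin), the soluble and the membrane-bound lectin chaperones of glycoproteins, had 25644 and 29035 reads per library. Because the transcript of CANX is longer, 4915 against 1901 bases, the order turned per length, with a log2 CPM per kb of 9.52 for CALR and 8.33 for CANX, a ratio of 2.28 (1.25 per coding length). HSP90B1 (GRP94, the ER form of HSP90) stood at 9.04 and HSPA5 (BiP, the ER form of HSP70) at 8.13 on the same scale, with 26911 and 20264 reads.

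The partners of BiP were all less abundant than BiP itself. HYOU1, which exchanges the nucleotide bound by BiP, had 6671 reads and a log2 CPM per kb of 6.30, so that BiP mRNA was 3.56 times as abundant per length. Of the J-domain co-chaperones, which deliver unfolded clients and stimulate the ATPase of BiP, DNAJB11 reached a log2 CPM per kb of 6.07, DNAJC3 5.35 and DNAJB9 4.20. DNAJB11 exceeded DNAJB9 by 3.68 times per transcript length and 1.56 times per coding length. DNAJB11 also exceeded DNAJC3 per transcript length, 1.66 times, but per coding length the order was the opposite, with a ratio of 0.684, so these data do not order them.

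The remaining genes of the group were spread widely. MANF, a small secreted protein that is retained in the ER and binds BiP, had a log2 CPM per kb of 6.25 from 1276 reads on a transcript of 909 bases. CRELD2, another ER protein that is induced by ER stress, had 2.94 from 201 reads, and MANF exceeded it 9.96 times per length. SDF2L1, a partner of DNAJB11, was the least abundant chaperone-group gene at 1.68, with 48.1 reads. Counting error alone on the reads of SDF2L1 in all libraries came to 5.88%, the largest of any member with a read.

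The oxidoreductases had the highest median of the roles, a log2 CPM per kb of 6.58. P4HB (PDI, the founding protein disulfide isomerase) stood at 7.70 and PDIA3 (ERp57, which works with calnexin and calreticulin) at 7.14, with 9303 and 9579 reads. P4HB was 1.47 times PDIA3 per transcript length and 0.965 times per coding length, so the pair could not be ordered. PDIA6 followed at 6.79 and PDIA4 at 6.37. ERP44, which retains clients that lack their own ER signal, stood at 4.30. ERO1B, one of the oxidases that recharge PDI, was lowest at 2.72 from 605 reads, and P4HB exceeded it 31.5 times per transcript length and 14.1 times per coding length. The related oxidase ERO1A, which is not a member, stood at 5.16 from 3379 reads.

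PDIA3 has a processed pseudogene, PDIA3P1, which was itself given 454 reads, or 4.74% of the reads of PDIA3. The handling of reads that match both was not given in the sources used here, and how many of the reads of either gene came from the other was not tested.

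Of the degradation genes, the 8 that were read lay between log2 CPM per kb of 3.36 and 4.96 per transcript length, and between 3.48 for EDEM2 and 6.78 for DERL1 per coding length. HERPUD1, a membrane protein that organises the degradation complex, had 1637 reads and a log2 CPM per kb of 4.96, the highest of them per transcript length, whereas per coding length DERL1 (6.78) and EDEM1 (6.56) exceeded its 6.24. SEL1L, the adaptor of the ubiquitin ligase complex, stood at 4.24 and its ligase SYVN1 (HRD1) at 3.38, a ratio of 1.82 (3.68 per coding length). Of the EDEM proteins, which trim mannose from glycoproteins bound for degradation, EDEM1 and EDEM3 lay side by side at 4.93 and 4.91, and EDEM2 lower at 3.36, EDEM1 exceeding EDEM2 by 2.96 times (8.46 times per coding length). Of the derlins, rhomboid-like proteins of the retrotranslocation channel, DERL1 stood at 4.69 and DERL2 at 3.46, a ratio of 2.33.

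Among the sensors, ATF6 was the most abundant and ERN1 the least. ATF6, which is cut in the Golgi to release a transcription factor, had 2448 reads and a log2 CPM per kb of 4.15. EIF2AK3 (PERK), the kinase that slows translation, had 628 reads and 2.91. ERN1 (IRE1 alpha), the nuclease that splices XBP1 mRNA, had 139 reads on a transcript of 7895 bases and -0.06, the lowest value of any member with a read. ATF6 exceeded ERN1 by 18.5 times per length, and EIF2AK3 exceeded it by 7.83 times (3.94 times per coding length). XBP1, the mRNA that ERN1 splices, stood at 5.21 with 1224 reads. It was 2.09 times ATF6 per transcript length but 0.891 times per coding length. The counts are per gene, so spliced and unspliced XBP1 were not separated. The related membrane-bound factors CREB3 and CREB3L2 stood at 4.42 and 3.66, and this order was also the opposite per coding length, with a ratio of 0.478.

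The translocation genes were abundant. SEC61A1, the pore-forming subunit of the channel, stood at a log2 CPM per kb of 6.84 with 7500 reads, and SEC61B, a small subunit, at 5.35 with 424 reads on a transcript of 564 bases. SEC24D, a cargo adaptor of COPII vesicles that leave the ER, stood at 4.17. WFS1 (wolframin), an ER membrane protein, was lowest of the group at 1.60 with 202 reads.

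A list of 62 other ER genes served as a comparison, of which 61 were found. Their median was a log2 CPM per kb of 4.78, close to the 4.80 of the members. Of these 61 genes, 57 reached 10 reads, 55 lay above the median of read genes, and 23 were in the top 10%. The highest were SSR2 at 8.12 and VCP at 7.76, and the lowest ERN2, with 0.497 reads, and RNF5, listed at 0. ERN2 is the epithelial paralogue of ERN1.

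**Figure D2:**
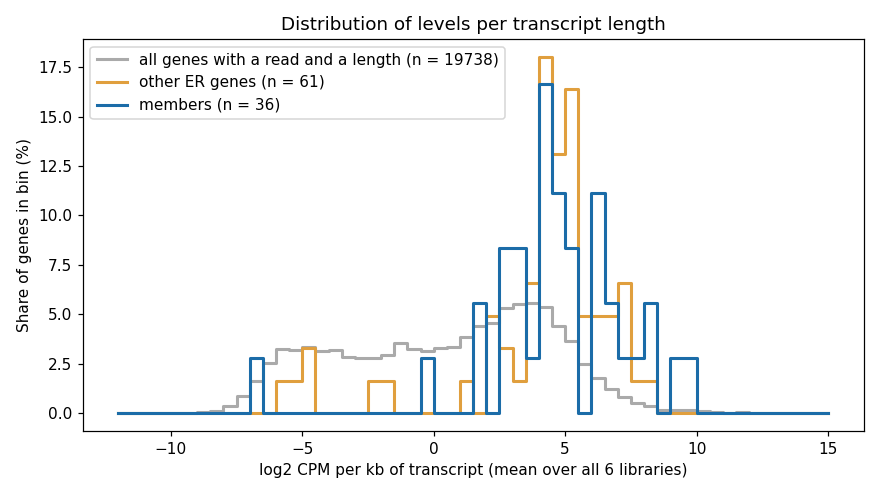
Share of genes in bins of log2 CPM per kb of canonical transcript, the mean over all 6 libraries, for genes with a read and a known length (n = 19738), the 61 other ER genes and the 36 members. The members' values, DERL3 excepted, run from -0.06 to 9.52, and their median of 4.80 lies close to that of the other ER genes (4.78).

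DERL3, the third derlin, needs its surroundings to be read. On chromosome 22 it belongs to a run of 13 neighbouring protein-coding genes, from VPREB3 to GSTT4 (chr22:23752743-24005453, GRCh38), none of which reached 10 reads. The highest of them, GSTT2B, had 4.88 reads, and 8 were listed at 0. These included SMARCB1, a subunit of the SWI/SNF chromatin remodeller, and MIF and DDT, a cytokine and its relative that most cells make. The genes at either side were read, ZNF70 with 85.2 reads and CABIN1 with 700 reads. This run was examined after the value of DERL3 was seen.

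**Figure D3:**
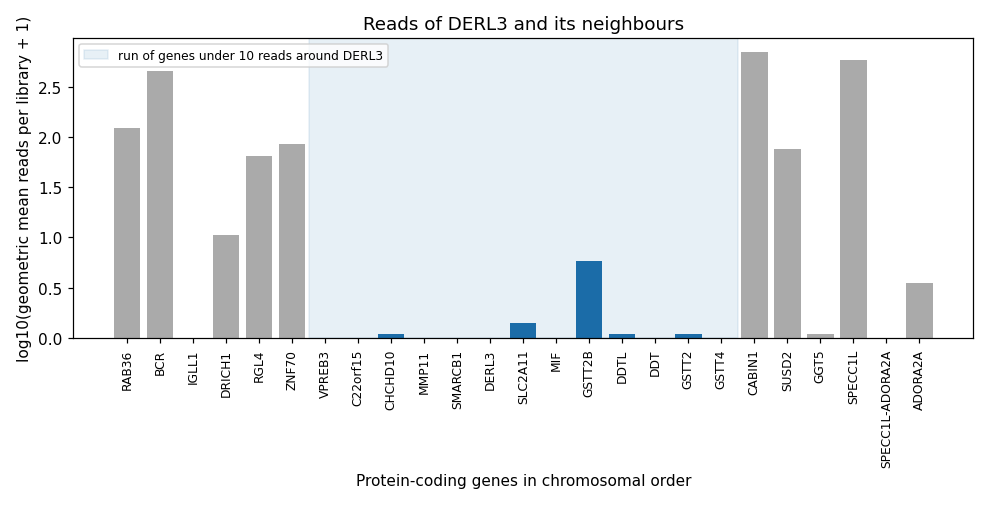
Geometric mean reads per library, as log10 of the reads plus 1, of DERL3 and of protein-coding genes around it in chromosomal order. The shaded run of 13 genes holds DERL3, SMARCB1, MIF and DDT, all listed at 0, between ZNF70 (85.2 reads) and CABIN1 (700 reads).

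The same sequence occurs a second time in the hg38 file used here. Of the DERL3 transcript, 97.9% was also found on the alternate contig chr22_KI270879v1_alt, as were 98.9% of SMARCB1, 96.9% of MIF and 97.3% of DDT, but 0.830% of CABIN1. DERL3 was the only one of 36 members with at least 50% of its transcript on such a contig. RNF5 and ATF6B, from the list of other ER genes, had 96.5% and 95.6% of theirs on alternate contigs, and they lay in a run of 144 coding genes on chromosome 6 of which none reached 10 reads. Whether the authors' reference contained alternate contigs is not given in the sources used here, and the part of these contigs in the zero of DERL3 was not tested. The value of DERL3 is therefore given only as listed at 0.

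Other genes overlap several members on the chromosome. Of the 36 members 26 share bases with another annotated gene, 22 of them with one on the opposite strand. Overlap was taken over whole gene spans, introns included. The same share over all genes was not computed, so these counts are not read as particular to the members. Among the read neighbours, SYVN1 (583 reads) overlaps FAU on the same strand (1755 reads) by 398 bases and MRPL49 on the opposite strand (1446 reads) by 5189 bases. SEC61A1 overlaps RUVBL1 (3130 reads), DERL2 (845 reads) overlaps MIS12 (1201 reads), and CREB3 (591 reads) overlaps GBA2 (1101 reads), each on the opposite strand. The library kit marks strand, but the setting used in counting was not given in the sources used here. Overlap of exons was not computed, so whether reads of such pairs were left out or shared was not tested.

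The ER stress element was rare over all promoter windows, and the members held a large part of the few that exist. RefSeq windows were found for 32 of the 36 members, 40 windows in all, and not for DERL1, DERL3, SEC24D and PDIA3. The first form occurred in 8 of 32 members (25%), against 25 of all 27305 genes with a window (0.0916%). It occurred in 16 of 10835 genes of at least 10 reads (0.148%) and in 0 of 50 other ER genes. The list of other ER genes leaves out SERP1 and FICD, which act at the translocon and on BiP and hold the first form. The 0 of 50 therefore holds for that list only. The second form occurred in 3 members (9.38%) against 19 of all genes (0.0696%), and 11 members had one form or the other. The element was defined on promoters of genes of this kind, CALR, HSP90B1 and HSPA5 among them, and the members were chosen as genes of the ATF6 and XBP1 response, so these shares describe the windows and were not tested.

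**Figure D4:**
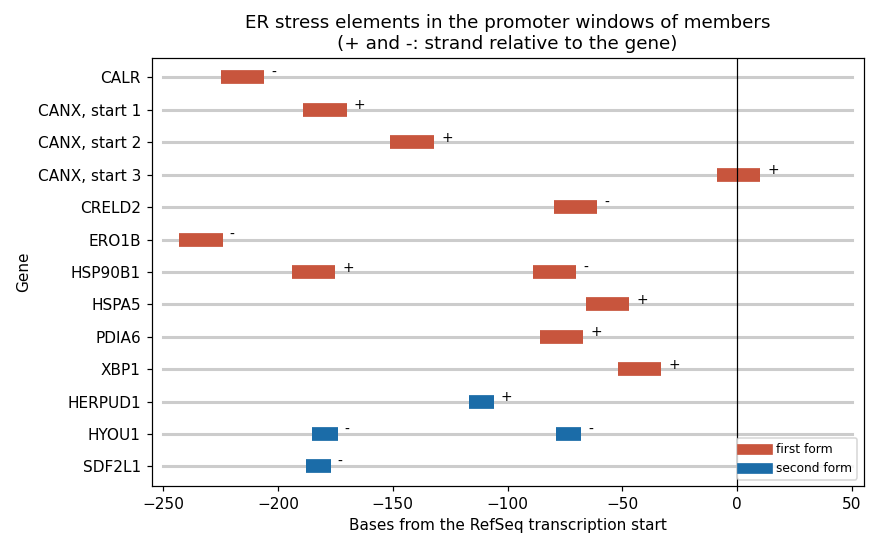
Positions of ER stress elements in the promoter windows of the 11 members that hold one, in bases from the RefSeq transcription start, with the strand relative to the gene. Grey lines are the searched windows of 300 bases, red marks the first form and blue the second, and HSP90B1 and HYOU1 each hold a pair. The 1 site of CANX is drawn against each of the 3 starts whose windows hold it, and it spans the start in 1 of them.

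The distances run from the start whose window holds the site to the element's first base along the gene. The site of CANX lies in the windows of 3 starts, beginning 189, 151 and 9 bases before them, and it runs across the last of these starts. The sites of the other members lay wholly before the start. The element of XBP1 began 52 bases before it, that of HSPA5 at 66 bases, CRELD2 at 80 bases, PDIA6 at 86 bases and the nearer site of HSP90B1 at 89 bases. The farther site of HSP90B1 began at 194 bases, that of CALR at 225 and of ERO1B at 243. The second-form sites began 79 and 185 bases before the start in HYOU1, 117 in HERPUD1 and 188 in SDF2L1. For PDIA6 and XBP1 a further start has a window without the site, and CANX also has such a window. The site of CRELD2 is shared with ALG12, the gene that begins on the other strand beside it and had 97.6 reads.

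The parts of the element, taken alone, were common in all sets of genes. CCACG alone was in 75% of the members' windows by gene, 76% of the other ER genes and 42.1% of all genes. Among genes of at least 10 reads it was in 56.5%. CCAAT alone was in 84.4% of members, 46% of the other ER genes, 43.7% of genes of at least 10 reads and 39.7% of all genes. The sequence TGACGTGG was searched because it is the core of another element bound by factors of this response. It was in 1 of 32 members and in 11 of 50 other ER genes (22%). Its share was 0.927% of all genes and 1.20% of genes of at least 10 reads. The 1 member was HYOU1, where TGACGTGG overlaps the farther second-form site. The median GC content was 66.8% in the members' windows, 68.3% in those of other ER genes and 58.7% over all. For genes of at least 10 reads it was 64.3%. The part of base composition in these shares was not tested.

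Members with the first-form element had the higher median level, though the ranges overlapped. The 8 genes with it had a median log2 CPM per kb of 7.46, from 2.72 for ERO1B to 9.52 for CALR. The 24 with a window but without it had a median of 4.36, from -0.06 for ERN1 to 7.70 for P4HB. These 24 include HERPUD1, HYOU1 and SDF2L1, which hold the second form. All 4 members in the top 1% of genes per length, CALR, HSP90B1, CANX and HSPA5, carried it. The element was defined on promoters such as those of CALR, HSP90B1 and HSPA5, so its presence there is no separate result. Of the other carriers, CANX stood at 8.33, PDIA6 at 6.79, XBP1 at 5.21, CRELD2 at 2.94 and ERO1B at 2.72. Outside the members, the 8 genes with the element and at least 10 reads ran from -0.00094 for ALG12 to 6.40 for EIF2A on this scale. Between them lay FICD at 0.115, SYNPO at 1.67, ZNF17 at 1.74, TMEM120A at 1.91, TRIM5 at 3.21 and SERP1 at 5.90. SERP1 and EIF2A share their site. A link between the element and the level was not tested.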

How the data were processed

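RNA of A375 cells was sequenced in 6 libraries (3 OLO, 3 OZO). Per the submitters' processing notes and the methods, the authors aligned reads to hg38 with HISAT2 2.1.0, counted them per gene with featureCounts 2.1.1 and used limma 3.58.1 with voom. The deposited log2 value used here is the mean log2 CPM over all libraries, with 0.5 added to each count. The deposited table also holds the authors' own comparison of the groups (fold change, moderated statistic, p-value, adjusted p-value and log-odds), which was not used, and no values per library were analysed, so there is no test and no error between libraries. Reads were derived from the distance to the lowest value. For all 11518 low genes checked, the product over the libraries was an odd whole number, as this implies, with a tolerance of 0.02. The check could not fail for the 7012 genes without a read, whose product is 1 by construction. Lengths came from GENCODE release 44 and promoter windows from RefSeq (GRCh38.p14), with Python 3.11.15 and pandas 2.3.3. The derivation of reads and the search for the first-form element were tested on simulated data. The simulated levels were built with the formula that the derivation inverts. That test therefore checks the calculation, not how the deposited values were made. All members are named. Members, roles and lists were chosen with earlier results of these data known.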

Additional observations from a re-analysis of the deposited data

How the results depend on the processing

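No paired analysis was possible because no values per library were analysed and no test between OZO and OLO was made. For the same reason the replicate block, the other count tools, the filter on low counts and leaving out each replicate were not run. The search for a C-terminal ER retrieval signal, and length from the reference protein, were not run because no protein sequences were used here.

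The number of members with an ER stress element was 8. It was 15 with 1 mismatch allowed, 3 for the second form and 24 for CCACG alone, as the different letters searched imply. With 1 mismatch the share was 46.9% of members, against 1.89% of all genes and 2.57% of genes of at least 10 reads. None of the 50 other ER genes had such a match. Searching only the first window of each gene, chosen after seeing the data, gave 7. Counts of members above a median, over a read minimum or at the floor stayed within 1.5 times under each other setting that was run. Of 18 ratios between members, 14 kept their direction with coding length, a choice made after seeing the data, and 4 turned. Those 4, as log2 differences per coding length, were -0.55 for DNAJB11 less DNAJC3, -0.051 for P4HB less PDIA3, -0.17 for XBP1 less ATF6 and -1.06 for CREB3 less CREB3L2.

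The searches for CCAAT alone, TGACGTGG, alternate contigs and neighbouring genes were also chosen after seeing the data. Depth limits the levels of SDF2L1 and ERN1 most. The error given for SDF2L1 covers counting only, and no intervals were computed.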

Other observations

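Outside the members, the first-form ER stress element was in the windows of 17 other genes, 8 of which had at least 10 reads. SERP1, which stabilises membrane proteins at the translocon, had 3329 reads and shares its site with EIF2A, which begins beside it and had 6050 reads. FICD, the enzyme that switches BiP off and on by AMPylation, had 64.4 reads. The others were ALG12, SYNPO with 312 reads, TMEM120A with 96.5, TRIM5 with 574 and ZNF17 with 166.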
